A study of Homo sapiens with 64 samples.

Results

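The regions described here are the short single intervals among the 3′ untranslated region (3′ UTR) intervals on which SLAM-seq reads were counted. An interval belongs to the set when its name carries exactly 1 distinct interval (chromosome, start, end and strand) and that interval is shorter than 300 nt. This rule gave 4818 members, which were 15.2% of the 31796 names and 4.86% of the 99090 distinct intervals. Another 6715 names had a single interval of 300 nt or longer, and 20263 names had several intervals. The rule used annotation alone and no measured value. At the limit, RN7SL1, LOXL1 and MBLAC1 (299 nt, with a mean of 758, 230 and 215 reads per library) were the most-read members, and FBXW9, INTS1 and MUC12 (300 nt, 645, 488 and 8.56 reads) lay just outside.

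The study examined RNA half-life after knockdown of FBL (fibrillarin) in C4-2 cells, an established human prostate cancer cell line, and in HEK293T cells, a human embryonic kidney line that was not used here. All groups below are C4-2 cells. The SLAM-seq libraries came from cells given siCTRL, the control siRNA, or siFBL, the siRNA against FBL, with 8 libraries each, labelled as 2 replicates at 0, 6, 12 and 24 h. Both arms were fed 100 µM 4-thiouridine for 24 h, after which the medium was exchanged for one with 10 mM uridine and cells were collected at those hours. RNA-seq covered siCTRL and siFBL at 0, 3, 6 and 12 h with 2 libraries each. The labels do not name the agent that started this time course. FBL RNA immunoprecipitation (RIP) and its input had 2 libraries each, from siCTRL cells. RNA-seq and RIP counts are per whole gene and were matched to members by gene symbol. Every C4-2 library comes from the same line, so none shows variation between lines, and nothing in the labels says that replicates came from separate cultures; p-values then measure the spread between these libraries, which may be technical.

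Fibrillarin is the methyltransferase of box C/D small nucleolar ribonucleoproteins, in which a small nucleolar RNA (snoRNA) of the SNORD class pairs with its target and directs 2′-O-methylation, while NOP56 is a core protein of the same particle. H/ACA snoRNAs of the SNORA class direct pseudouridylation with other core proteins. In SLAM-seq, 4-thiouridine taken up into RNA is alkylated and read as C where the genome has T, so the loss of T>C conversions during a uridine chase follows the loss of labelled RNA. The libraries were made with a 3′ end kit, so reads start next to the poly(A) tail, and a 3′ UTR shorter than a read leaves part of that read outside the counted interval.

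The name 3′ UTR holds for a minority of the set. RefSeq symbols matched 4228 members, and by RefSeq type 1669 members were protein coding, 1277 were pseudogenes, 943 were miRNA hairpins and 282 were snoRNAs. In GENCODE release 29, 1331 members lay after the coding end of a transcript of the same gene and 2532 lay on a noncoding transcript of the same gene. The deposited number of T bases equalled the number in the GENCODE sequence for all 4506 intervals that could be placed in an exon. Interval lengths ran from 1 to 299 nt with a median of 107 nt, and 363 members overlapped an interval of another name on the same strand.

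Sequences are shown for members on which the results turn: first the end of the interval around the poly(A) signal, in capitals, which marks where a 3′ end library starts to read. They were read 5′ to 3′ from GENCODE release 29 transcripts, in hg38 coordinates.
FBL (chr19:39834462-39834485, minus strand): tgtttttctATTAAAagactcatc
NOP56 (chr20:2658364-2658387, plus strand): gtgttccccAATAAAaacaaattc
GDF15 (chr19:18389147-18389170, plus strand): ggtgataaaAATAAAgctgtctga
CKB (chr14:103519676-103519699, minus strand): tgatgctgaAATAAActagggttt
FBL carries the variant ATTAAA and the other 3 the canonical AATAAA. Over 930 protein-coding members that reached the transcript end and had at least 45 nt, the last 45 nt on the sense strand held AATAAA in 56.9%, ATTAAA without AATAAA in 11.2% and neither in 31.9%. Among 2622 longer single-interval names the same shares were 64.3%, 13.3% and 22.3%.

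The noncoding members are whole short genes, and their class shows in the sequence. The first and last 20 bases of 3 snoRNA members are given for the box motifs, in capitals: TGATGA, the core of box C, CTGA, box D, and ACA near the end of an H/ACA snoRNA.
SNORD116-18 start (chr15:25085385-25085404, plus strand): ggatcgaTGATGActtcctt
SNORD116-18 end (chr15:25085457-25085476, plus strand): tcctcgtcgaaCTGAggtcc
SNORD68 start (chr16:89561434-89561453, plus strand): TGATGAcattctccggaatc
SNORD68 end (chr16:89561498-89561517, plus strand): gattgCTGAggcttttcatc
SNORA67 start (chr17:7577955-7577974, plus strand): atccaaggtgattccctctc
SNORA67 end (chr17:7578072-7578091, plus strand): ttccttggctgcccACAtgg
TGATGA in the first 20 bases together with CTGA in the last 20 bases, sense strand only, occurred in 149 of 202 SNORD members whose interval is the whole transcript (73.8%), in 0 of 65 SNORA members, in 2 of 10 small Cajal body RNA members and in 0 of 2253 noncoding members outside these classes. ACA followed by exactly 3 bases at the interval end occurred in 45 of 65 SNORA members (69.2%) and in 7 of 10 small Cajal body RNA members.

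Most members were silent in the SLAM-seq libraries. No read fell on 3129 of the 4818 members in any library, against 1697 of 6715 longer single-interval names. A mean of at least 20 reads per library was reached by 625 members, and a mean of at least 1000 covered T bases, the minimum used for T>C values, by 491, of which 434 were protein coding. Members took between 9.09% and 11.5% of the reads on names in each library. A name with several intervals counts there by its most-read interval alone, as in the comparisons with other or all names below. The 10 most-read members held 64.7% of all member reads, against 33.7% for the 10 most-read longer names. GDF15, a stress-induced secreted cytokine, alone took 33.1% to 49.7% of member reads. Others among the 10 were RPL10A (a ribosomal protein), CHCHD2 (a mitochondrial intermembrane space protein), CKB (brain-type creatine kinase), ATP5F1B (an ATP synthase subunit), TMSB10 (an actin-binding thymosin) and 3 mitochondrial tRNA intervals.

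The mitochondrial tRNA reads did not cover their intervals alike. MT-TL1, MT-TG and MT-TW had means of 81187, 67237 and 35952 reads per library, and each interval begins 1 nt after the end of another mitochondrial gene, MT-RNR2 for MT-TL1, MT-CO3 for MT-TG and MT-ND2 for MT-TW. A read on MT-TG covered 0.0248 T on average and a read on MT-TW 0.0824, although these intervals hold 23 and 19 T bases. A read on MT-TL1 covered 4.57 of its 21 T bases, and a read on MT-TF, which follows no gene on its strand, 15 of 18. Reads assigned to MT-TG and MT-TW therefore touched the intervals with few T bases. Other tRNA intervals that begin 1 nt after a gene ran from 2.28 of 19 T per read (MT-TH) to 18.2 of 22 (MT-TI). MT-TK, 26 nt after MT-CO2, had 3.54 of 20. Whether cover goes with the distance to the gene before was not tested. Under 1 covered T per read was found for 8 of the 625 members with at least 20 reads and for 0 of 2934 longer names.

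Reads on shorter intervals covered fewer T bases. Among protein-coding single-interval genes with at least 5 CPM (counts scaled to library size) in RNA-seq, 71.4% of 28 genes with intervals under 50 nt had a mean of 20 SLAM-seq reads, against 88.2% of 68 genes at 50 to 99 nt, 92.9% of 168 genes at 200 to 299 nt and 94.5% of 1516 genes at 1000 nt or longer. The median number of covered T per read was 7.34, 13.5, 24.0 and 26.8 in those classes. The median T>C rate in siCTRL at header hour 0 was 8.28%, 7.05%, 8.69% and 9.60%. The rate, which is conversions divided by covered T, differed less between classes than the T count per read did.

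Before the time results, the labels have to be set beside the deposited tables. Each SLAM-seq table carries the name of its source library in its header, and the siRNA in it equalled the label in 16 of 16 libraries, but the hour differed in 12 of 16. T>C rates were pooled here over the 491 members with a mean of at least 1000 covered T, so members with more covered T weigh more. The rate in the siCTRL library labelled 0 h replicate 2 was 0.716%, below the 3.43% of that labelled 24 h replicate 2. In siFBL the same pair was 0.247% and 2.55%. In replicate 1 the rate was higher at labelled 0 h, with 7.62% and 1.98% in siCTRL and 6.11% and 1.40% in siFBL. Libraries with the same header hour differed by a mean chi-square of 4.01 to 10.4 per name over names with at least 20 reads, and those with the same labelled hour by 22.8 to 240. T>C values are therefore given by header hour, as a description with no test, and the tests between siRNAs follow the labels. The 2 siFBL libraries of header hour 24 also stood apart, with 43.9 M and 60.3 M mapped reads against 14.5 M and 30.1 M in siCTRL, and 1175 and 1222 members with a read against 818 and 869.

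T>C conversions on members fell with header hour in both arms. In siCTRL the median rate over the 491 covered members was 8.28% at header hour 0, 3.66% at 6, 1.81% at 12 and 0.521% at 24. In siFBL it was 6.23%, 2.85%, 1.42% and 0.166%. Relative to header hour 0, the median member kept 50.9%, 24.5% and 6.33% of its rate in siCTRL at 6, 12 and 24, and 49.1%, 22.6% and 2.68% in siFBL. The longer single-interval names kept 28.2%, 8.57% and 2.30% in siCTRL. The rate fell at every step for 383 of 491 members in siCTRL (78.0%, against 85.8% of 10755 other names) and for 386 in siFBL.

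**Figure D1:**
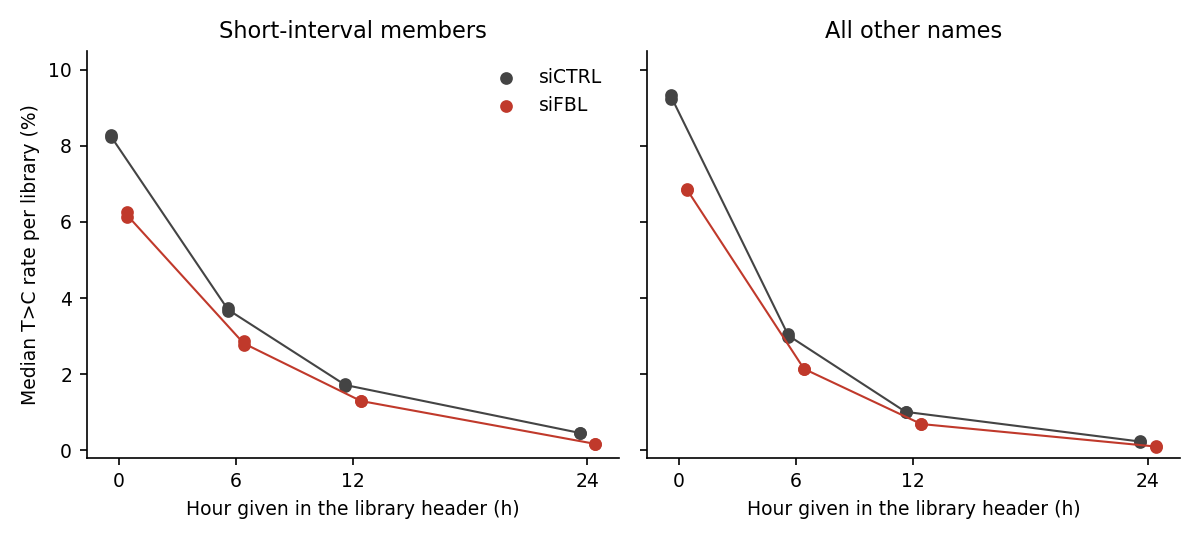
Median T>C rate (percent of covered T) in each of the 16 SLAM-seq libraries against the hour in the library header, for members (left) and all other names (right); points are libraries, lines join the mean of the 2 libraries. In both panels the siFBL points lie below the siCTRL points at each header hour, and both arms fall from hour 0 to hour 24.

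The share left at header hour 6 was larger for shorter intervals from 50 nt upward; the 16 members under 50 nt lay between the next 2 classes. In siCTRL the median was 63.4% under 50 nt, 68.2% at 50 to 99 nt, 48.7% at 100 to 199 nt and 44.8% at 200 to 299 nt. Beyond the limit it was 39.0% at 300 to 499 nt, 29% at 500 to 999 nt, 27.7% at 1000 to 1999 nt and 26% from 2000 nt. The values decline across the limit of the set without a step, so the limit marks a range and not a class. Over the 4 pairings of a header hour 6 with a header hour 0 library in siCTRL, the median over protein-coding members ran from 48.8% to 51.2% and over longer names from 28.1% to 28.9%, so the ranges did not overlap. Without the cytosolic and mitochondrial ribosomal protein and respiratory chain genes, 395 protein-coding members kept 47.6% and 2315 longer names 28.1%. Within those genes alone, 39 members kept 82.2% and 20 longer names 45.6%.

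**Figure D2:**
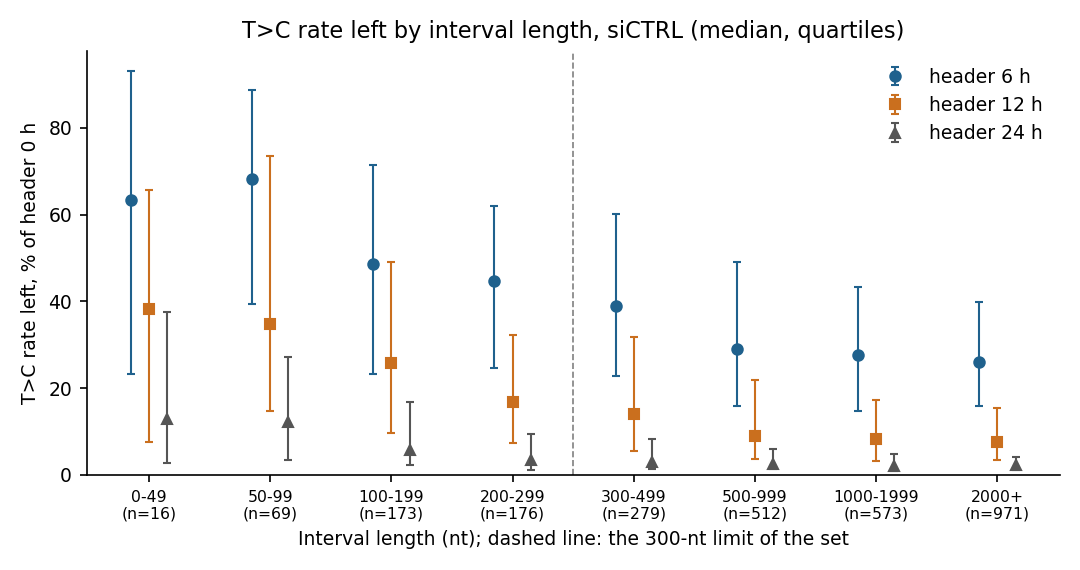
T>C rate left in siCTRL as a percentage of the header hour 0 rate, by interval length of protein-coding single-interval names; points are medians over names, bars the quartiles, and the dashed line the 300 nt limit. The median at header hour 6 runs from 63.4% under 50 nt to 26% at 2000 nt or longer.

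Gene groups differed within the set. The cytosolic ribosomal protein genes had the highest median of the groups given here at header hours 6 and 24: the median of 9 covered members was 94.6%, 77.6% and 75.2% of the header hour 0 rate at 6, 12 and 24 in siCTRL. In siFBL those 9 members kept 88.7%, 81.4% and 14.1%. Their median rate at header hour 0 in siCTRL was 3.71%, against 8.28% over all covered members. The siFBL values at header hour 24 in this paragraph come from the 2 libraries that stood apart, whose part in them was not tested. The 18 covered genes of the respiratory chain and ATP synthase kept 90.4%, 85.0% and 47.5% in siCTRL and 9.54% at header hour 24 in siFBL. Among them ATP5ME, a small ATP synthase subunit, went from 7.07% to 6.48%, 6.02% and 3.40% in siCTRL. The 12 mitochondrial ribosomal protein genes kept 48.8% at header hour 6, close to the whole set, and 5.81% at 24. The 9 ribosome biogenesis factors kept 40.9% and 4.28%, and the 6 covered histone genes 71.3% and 16.4%. At the other end stood the 10 ZNF genes, zinc finger transcription factors, with 16% at header hour 6 and 0.826% at 24. ZNF628 among these went from 9.87% to 0.0815% by header hour 6.

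Single members show these patterns library by library. GDF15 had T>C rates in siCTRL of 9.42% and 9.34% at header hour 0, 2.67% and 2.64% at 6, 0.734% and 0.747% at 12, and 0.174% and 0.187% at 24. In siFBL its rates were 7.09% and 7%, then 1.81% and 1.74%, 0.461% and 0.459%, and 0.129% and 0.138%. Both arms lost the label steadily, and at each header hour both siFBL libraries lay below both siCTRL libraries. NOP56 had 13.4% and 11.3%, 4.58% and 4.63%, 3.95% and 2.17%, and 1.44% and 2.49% in siCTRL across the 4 header hours. In siFBL it had 10.4% and 9.90%, 2.23% and 2.04%, 1.06% and 0.618%, and 0.0599% and 0.0219%, with no overlap at any header hour.

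Among the 459 members with at least 200 covered T in each library, the 6 that kept least of their rate in siCTRL had 0 conversions at header hour 24: B9D2, a ciliary transition zone protein, FASTKD3, a mitochondrial RNA-binding protein, MMP10, a matrix metalloproteinase, C20orf204, LINGO3 and ENSG10010139242.1. Counting error alone allows a rate of up to 0.0731% for FASTKD3 (0 of 4105 covered T, 3 counts) and up to 0.375% for C20orf204 (0 of 801). The 6 that kept most were ENSG10010135528.1, MIR4426, MMP7, PEBP4, TCIRG1 and MT-TL2, all with a higher rate at header hour 24 than at 0. MMP7, another matrix metalloproteinase, had 1.58% at header hour 0 and 4.62%, 4.30% and 3.34% after it. Its 2 siCTRL libraries of header hour 24 held 0.157% of 635 covered T and 5.11% of 1134, so its header hour 24 value rests on one library.

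A few members still had a high T>C rate at the last header hour. Of 652 members with at least 300 covered T over the 2 siCTRL libraries of header hour 24, 7 had a rate above 10%, as had 25 of 12982 other names. The 7 were FBL, RPL7A, MT-TH, GJC3, DRC1, TCIRG1 and PKD2L1. The first 3 had a rate above 10% at all 4 header hours, while at header hour 12 GJC3 had 2.79%, DRC1 2.07%, TCIRG1 4.63% and PKD2L1 0%. FBL had 24.9% at header hour 0, 26.6% at 6, 22.4% at 12 and 29.1% at 24 in siCTRL (109 of 374 covered T). RPL7A, a large-subunit ribosomal protein whose reads can be shared with near-identical copies, had 23.5%, 24.4%, 22.0% and 28.9%. The cause was not tested.

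For reads, FBL comes first as the targeted gene. Its interval received a lowest, median and highest count of 2, 28.5 and 54 reads in the 8 siCTRL libraries and 0, 0 and 2 in the 8 siFBL libraries. In all, 206 reads fell on FBL in siCTRL and 3 in siFBL, a 57.6-fold lower count per mapped read (Poisson interval at 95%, counting error only, 19.7 to 279). The fitted log2 difference was -5.47 with an adjusted p of 0.01 (edgeR quasi-likelihood test with Benjamini-Hochberg adjustment, as for every adjusted p below). The FBL interval is thinly read, since RNA-seq gave 305 and 265 CPM for the gene in siCTRL at 0 h and 3.63 and 2.76 CPM in siFBL. NOP56 had 14.1, 35 and 69.3 CPM in siCTRL and 13.7, 45.1 and 63.2 CPM in siFBL, which overlap (log2 0.07, adjusted p = 0.962). Without the 4 libraries of header hour 24 its log2 value was -0.37.

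Few members passed the test for reads. Of 761 members tested, 2 were higher in siFBL and 5 lower, where 0.338% and 0.591% of all 14207 names were called higher and lower. The median log2 over members was -0.03, against -0.02 over all names. Both counts grew when each siFBL library was compared with the siCTRL library of the same labelled hour and number, which also share a header hour. That paired fit called 11 members higher and 26 lower of 859, against 2.35% and 2.28% of 15344 names. With the header hour as the hour term, 32 members were called higher and 40 lower. The shares over all names in that fit are not given here, so these counts are not read as a result about members. In the fit by labels 0.263% and 0.657% of members passed, near the shares over all names.

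Among the members lower in siFBL, beside FBL, were S100P, GTF3C6 and RP5-931K24.3. S100P, a calcium-binding protein, had a lowest, median and highest value of 56.0, 72.3 and 86.3 CPM in siCTRL and 35.4, 42.5 and 52.1 CPM in siFBL. All siFBL values lay below the siCTRL lowest (log2 -0.73 ± 0.13 SE, adjusted p = 0.0138). In RNA-seq the siFBL mean of S100P was the higher one at each hour, with 4.15 and 4.39 CPM in siCTRL and 8.76 and 5.42 CPM in siFBL at 12 h, and at 0 h the difference was not called (log2 0.44, adjusted p = 0.542). GTF3C6, a subunit of the RNA polymerase III factor TFIIIC, had 114, 128 and 174 CPM in siCTRL and 77.7, 89.1 and 113 CPM in siFBL (log2 -0.58, adjusted p = 0.0226), and RP5-931K24.3 had 16.1, 20.5 and 29.2 CPM against 6.90, 8.93 and 12.5 (log2 -1.22, adjusted p = 0.00167). S100P, RP5-931K24.3 and FBL kept their calls whichever of the 16 libraries was left out, while GTF3C6 lost its call in 9 of the 16.

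Higher in siFBL were ENDOG and SNORD68. ENDOG, a mitochondrial endonuclease, had 132, 150 and 181 CPM in siCTRL and 166, 202 and 294 CPM in siFBL, so the groups overlapped in part (log2 0.48, adjusted p = 0.0436). Leaving out 1 library ended this call in 15 of 16 cases, the exception being siFBL 0 h replicate 1. SNORD68 had 0, 1 and 4 reads in siCTRL and 6, 21.5 and 92 reads in siFBL, which do not overlap (log2 4.07, adjusted p = 0.0328). Its call was lost in 13 of 16 cases, and 20 bases at either end of this snoRNA are shown above. In RNA-seq, at under 1 CPM, both siFBL libraries lay below both siCTRL libraries at each hour, with 0.723 and 0.784 CPM in siCTRL and 0.312 and 0.481 CPM in siFBL at 0 h, where the difference was not called (log2 -0.92, adjusted p = 0.365). CKB, which was not called (log2 0.59, adjusted p = 0.08), had 1190, 1530 and 2738 CPM in siCTRL and 1645, 2258 and 4559 CPM in siFBL. The header hour 24 libraries were its highest in both arms, and the paired fit called it (log2 0.58, adjusted p = 0.000409). GDF15 had 34620, 41084 and 52972 CPM in siCTRL and 34894, 47145 and 58809 CPM in siFBL and was not called (log2 0.15, adjusted p = 0.669).

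**Figure D3:**
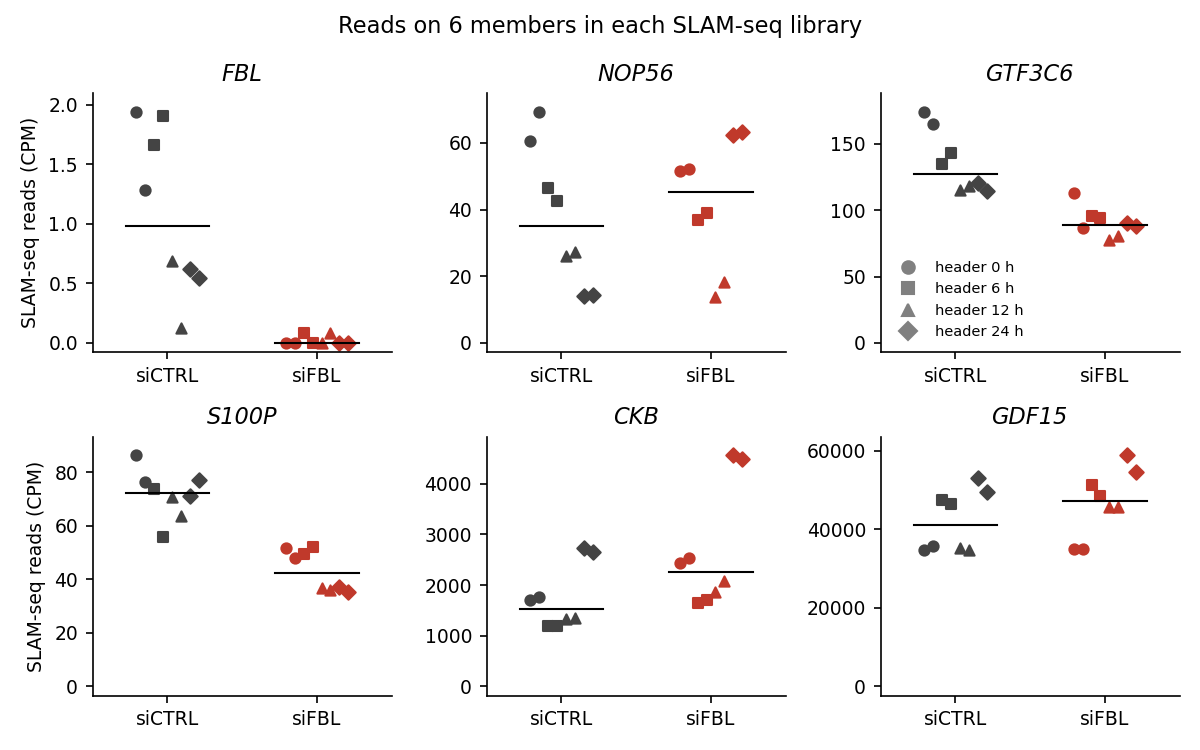
SLAM-seq reads (CPM) on FBL, NOP56, GTF3C6, S100P, CKB and GDF15 in each SLAM-seq library by siRNA; points are libraries, symbols give the header hour and lines the median of 8. FBL, GTF3C6 and S100P do not overlap between arms, and the CKB libraries of header hour 24 are the highest in both.

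The paired fit added members in both directions. KRT19, a luminal keratin, had a log2 value of 0.78 and an adjusted p of 0.0019, and IFI30, a lysosomal thiol reductase, one of 0.61 and 0.032. LARGE2, a glycosyltransferase of dystroglycan, stood at 0.78 with 0.00219. TUBA3D and TUBA3E, near-identical tubulin copies that may share reads, stood at 0.57 and 0.66. On the lower side were RPL7A (-1.29), C20orf204 (-0.97) and the histone H2BE1 with the overlapping ABCF2-H2BE1 (-1.24 and -1.01), of which the last pair cannot be told apart. Among the 10 cytosolic ribosomal protein members tested, 4 were lower in the paired fit, with a median of -0.33 and RPL10A at -0.29 (paired adjusted p = 0.0386). Of the 18 respiratory chain members, 1 was called higher and 0 lower in the paired fit.

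The share of reads with a T>C conversion was tested in one model of reads with and without conversions. By the labels, 0 members were called higher and 0 lower of 491 (0% of all 11246 names in each direction), and 0 members had an unadjusted p under 0.05 either way. Each labelled hour joins libraries of different header hours, so the spread in this fit includes that difference. Its 0 calls therefore do not show equal shares. For GDF15 the SE was 1.02 in this fit and 0.189 in the paired fit. With the header hour as the hour term members were called lower, as given in the section on processing. In the fit by labels 434 of 491 members had a value below 0, with a median of -0.47 against -0.51 over all names. In the paired fit 0 members were called higher and 118 lower, where 0.00889% and 27.6% of all names were called. NOP56 was among them (log2 of the odds -1.66, adjusted p = 0.00545), as were CKS2, a cell cycle kinase subunit (-1.62), RPL7A (-4.42), CCNO (-3.13), RNY5 (-2.65) and NRTN (-1.73). The 2 largest values had wide errors: RPL7A with SE 1.49 and adjusted p = 0.0416, CCNO with SE 1.14 and adjusted p = 0.0489. CCNO had a mean of 53.5 reads in siFBL and siCTRL libraries together. The RPL7A rate in siCTRL did not fall with header hour, as given above. When each library was centred on its own overall T>C odds, which removes a shift common to a library by construction, the paired fit called 0 members higher and 1 lower. Without header hour 24 the centred paired fit called 8 higher and 9 lower. The shares over all names in these centred fits are not given here, so the counts are not read as a result about members.

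The members with a lower rate in siFBL were counted by header hour as well. The siFBL rate was below the siCTRL rate for 439 of 491 members at header hour 0, for 390 at 6, for 358 at 12 and for 404 at 24. Both siFBL libraries lay below both siCTRL libraries for 340, 259, 215 and 281 members, which were 69.2%, 52.7%, 43.8% and 57.2%, against 78.1%, 56.6%, 45.1% and 52.1% of other names. These counts were highest at header hour 0, while the arms' median rates given above differed most in ratio at header hour 24. Taken relative to header hour 0, the share left was lower in siFBL for 266 of 491 members at 6, 266 at 12 and 369 at 24. The header hour 24 step contains the 2 siFBL libraries that stood apart, and their part in it was not tested.

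The RNA-seq and RIP values below belong to the whole genes that members name and not to the short intervals. KIFC1, for example, had 0 SLAM-seq reads on its interval in both arms but was counted in RNA-seq. In RNA-seq at 0 h, the genes of members changed in both directions. Of 1630 members tested, 25 were higher in siFBL and 63 lower, against 1.61% and 6.87% of all 23437 genes, and the median member stood at log2 0.30 against 0.04 over all genes. The filter on low counts can keep a scarce gene through 1 arm alone, so this median is not read as a shift of the members. The 5 members of the DNA replication and mitosis list (CDC20, UBE2T, TUBA1B, NDC80 and CKS2) were all lower, with a median of -1.91. CDC20, the activator of the anaphase-promoting complex, had 343 and 344 CPM in siCTRL and 76.3 and 57.9 in siFBL (log2 -2.36, adjusted p = 1.96e-06). KIFC1, a mitotic kinesin, had 116 and 110 CPM against 22.5 and 19.3 (log2 -2.44), and ESPL1, separase, fell by 2.24 on the log2 scale. The p53 target list had 2 members, and both rose: GDF15 from 1188 and 1209 CPM to 4013 and 5136 (log2 1.93, adjusted p = 1.08e-06), and TP53I3, an oxidoreductase, from 5.30 and 4.69 to 28.3 and 85.0 (log2 3.5). CEL, a lipase, rose from 1.23 and 0.857 CPM to 9.67 and 55.2 (log2 4.95), and APOD, ADAMTS7 and ISG15 rose by 1.85, 1.46 and 0.93. The 2 siFBL libraries at 0 h differed from each other more than the siCTRL pair did, with a mean chi-square of 98.1 against 23.2. Without siFBL 0 h B the higher count was 11 and CEL, APOD, ADAMTS7 and ISG15 lost their calls; without siFBL 0 h A the lower count was 41; without siCTRL 0 h A the counts were 4 and 30, and without siCTRL 0 h B the higher count was 14. DESeq2 called 45 members higher and 104 lower, given here without the shares over all genes.

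The members called in RNA-seq had smaller values in SLAM-seq reads. They were picked by their RNA-seq test, which favours large RNA-seq values, so smaller values in a second assay follow in part from the choice. Over 590 members with a value in both assays, chosen by no call, the log2 values had a Spearman correlation of 0.226 (Pearson 0.228). Of the 88 members called in RNA-seq, 71 were tested in SLAM-seq and 52 had the same sign. The 53 that fell in RNA-seq had a median of -0.95 there and -0.11 in SLAM-seq, where 37 lay below 0. The 18 that rose had 1.26 and 0.13, and 15 lay above 0. For the 5 DNA replication and mitosis members the SLAM-seq median was -0.12 and 0 were called by edgeR. The SLAM-seq cells had been in 4-thiouridine for a day and its reads pool all chase hours, so the assays differ in treatment as well as in method.

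**Figure D4:**
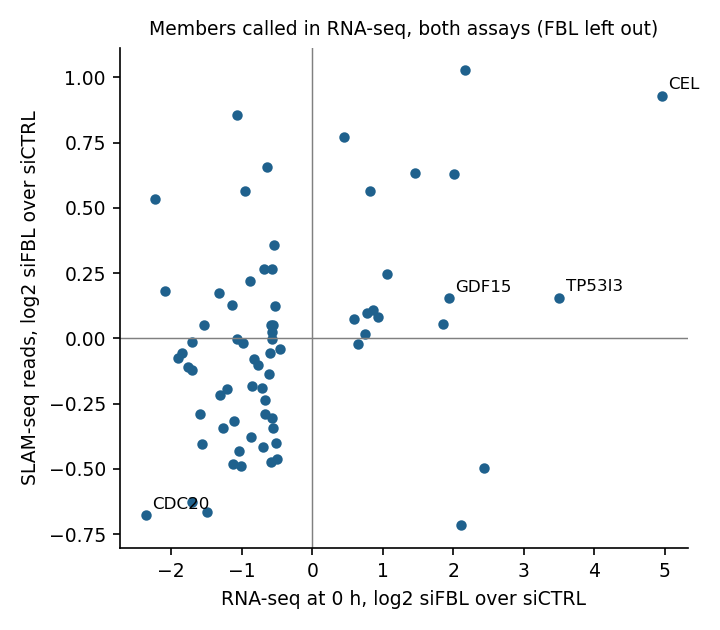
Log2 difference, siFBL over siCTRL, in RNA-seq at 0 h (x) and in SLAM-seq reads (y) for the members called in RNA-seq and tested in both; each point is a member, and FBL (-6.48 and -5.47) is left out for scale. Of the 71 members, FBL included, 52 share a sign, and GDF15 stands at 1.93 and 0.15.

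Over the RNA-seq time course in siCTRL, 220 of 1481 members rose in relative abundance per hour and 120 fell, against 15.9% and 19.2% of all 22869 genes. A positive slope here means a larger share of a library and not more molecules. Members of the ribosomal protein list rose in 8 of 10 cases and those of the respiratory chain list in 17 of 20, RPS27 and ATP5ME among them with log2 slopes of 0.11 per hour each. The secreted protease inhibitor SLPI (0.11) and TMSB10 (0.11) rose as well. UFSP1 (-0.50 per hour), HPS6 (-0.48), CCDC71 (-0.41), ZNF628 (-0.36) and RTN4R (-0.35) were among the members that fell, and 10 of 16 ZNF genes fell. Across 428 members the slope and the T>C share left at header hour 6 in siCTRL had a Spearman correlation of 0.705 (Pearson 0.493), and at header hour 24 of 0.554 (Pearson 0.112), given as a description: its points are genes that share the cell line and the libraries of each assay. The slope itself differed between siFBL and siCTRL for 0 members, where 0% of all genes were called higher and 0.00437% lower; 18 members had an unadjusted p under 0.05 for a higher and 53 for a lower slope, and DESeq2 also called 0 members. Without siFBL 12 h A 1 member was called. The siFBL libraries of the same column number, A or B, deviated together across hours (r of their deviations from group means 0.23 to 0.544), and with that number as a block within each siRNA 0 members were called in either direction.

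FBL RIP separated the tested members by RNA class. Of 754 members tested, 298 were higher in RIP than in input and 338 lower, against 39.9% and 43% of all 14967 genes, so the set as a whole did not stand out. The filter on low counts left 61 of 214 SNORD, 11 of 72 SNORA and 4 of 10 small Cajal body RNA members. It can keep a scarce member through the 2 RIP or the 2 input libraries alone. The counts by class are thus partly set by the filter and hold for tested members only. All 61 SNORD members tested were higher, with log2 values from 1.01 to 6.09 and a median of 4.13. Of 11 SNORA members, 10 were lower (median -2.35), and 4 of 4 small Cajal body RNAs were higher. Summed over 193 SNORD members, input held 63.1 and 69.9 CPM and RIP 611 and 553, while 42 SNORA members held 12.6 and 13.1 CPM in input and 3.01 and 3.18 in RIP. Copies such as the SNORD116 family may share reads, so single copies are uncertain. Protein-coding members tested were higher in 223 cases and lower in 325 of 660, with histones lower in 26 of 31, ribosomal proteins in 8 of 9 and respiratory chain members in 13 of 16. RPL39 (-4.55), TMEM256 (-4.36) and H4C3 (-4.07) were lowest, and NOP56 was higher (log2 1.83, adjusted p = 1.73e-21).

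**Figure D5:**
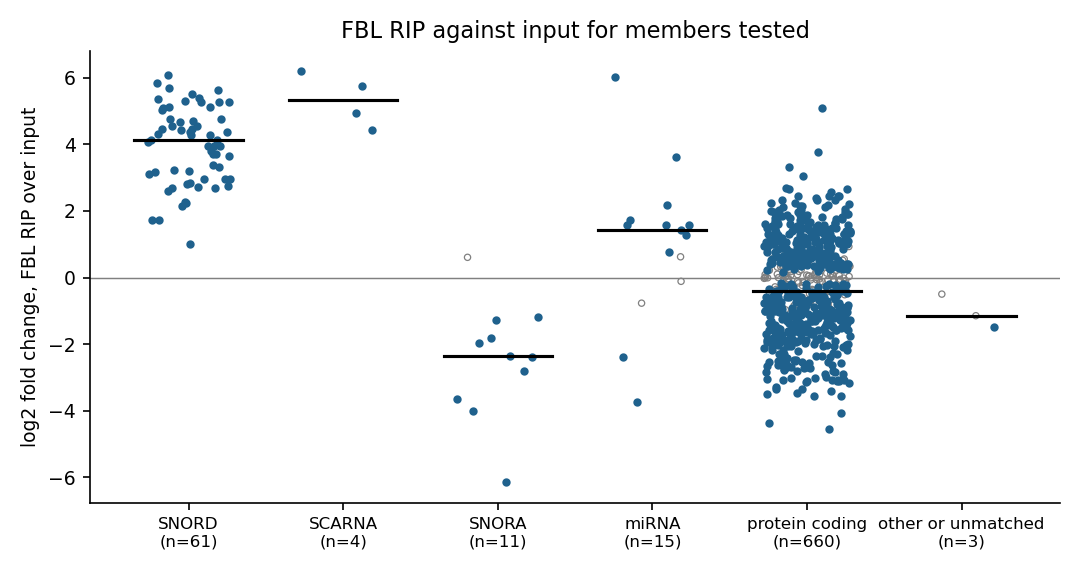
Log2 fold change of FBL RIP over input for members tested, by RNA class; filled points passed an adjusted p under 0.05, open points did not, and lines are medians. All 61 SNORD points lie above 0 and 10 of 11 SNORA points below it. Members removed by the filter on low counts are not shown, and the filter can keep a member through RIP or input alone.

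SNORD members were also lower in siFBL RNA-seq as a sum, and SNORA members at 0 h moved the same way. At 0 h, 193 SNORD members held 35.3 and 29.4 CPM in siCTRL and 18.2 and 15.8 CPM in siFBL. Of 70 tested, 60 had a value below 0 (median -1.22) but 1, SNORD116-4, passed the test. The 42 SNORA members held 13.7 and 10.1 CPM in siCTRL and 9.20 and 9.26 CPM in siFBL, and 24 of 31 tested lay below 0 (median -0.37) with 0 called by edgeR. Whether the classes differed was not tested. The filter on low counts can keep a scarce member through 1 arm alone, and its part in the counts of members tested was not tested. Per the labels the measured molecule was polyadenylated RNA, and whole snoRNAs carry no poly(A) tail.

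The libraries were of C4-2 type by their markers: 19 of 19 prostate luminal genes had a mean of at least 20 SLAM-seq reads, with summed levels of 3756 to 6115 CPM of mapped reads in siCTRL and 4741 to 9119 in siFBL. Of 17 leukocyte genes 2 reached that mean (summed 10.1 to 29.3 and 6.22 to 19.7) and 2 were at 0; of 11 fibroblast genes 3 did (40.6 to 72.6 and 36.2 to 49.6). Of 11 neuroendocrine and neural genes 3 did (50.5 to 344.5 and 71.1 to 220.04), and of 8 HEK293T genes 4 did (27.1 to 38.2 and 19.1 to 30.1). SLAM-seq depth was 14.3 M to 60.3 M mapped reads per library. In bulk samples, fewer cells with an RNA and less of it per cell cannot be told apart.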

How the data were processed

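Per the file headers, SLAM-seq reads were processed by the authors with slamdunk 0.4.3, whose deposited tables give counts of reads, reads with T>C, covered T and conversions per 3′ UTR interval on hg38. RNA-seq and RIP tables are deposited gene counts; the submitters' processing notes name TopHat2 2.1.1, HOMER and Trim Galore, with no settings. Other deposited columns (a T>C fraction, CPM and unused scores) were not needed. Repeated rows held equal values, and each name was counted once, by the interval with most reads over the 16 libraries.

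The members and gene lists were chosen with earlier results of these data known. Named genes were FBL, NOP56, the 10 most-read members, and per test the 6 highest and 6 lowest called members with at least 20 reads or 5 CPM, or the 3 of smallest p where under 3 were called. T>C rates are conversions over covered T, pooled over the 2 libraries of a header hour, for members with a mean of at least 1000 covered T. Tests used edgeR 4.0.16 (R 4.3.3) quasi-likelihood fits over all names with TMM scaling and filterByExpr, labelled hour as covariate for SLAM-seq. DESeq2 1.42.0 was an alternative. The main edgeR fits for reads, RNA-seq and RIP, and the paired fits for reads and T>C, were tested on simulated data. The other steps were not.

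SLAM-seq libraries of the same labelled hour and number deviated together: the correlation of their deviations from group means was 0.406, 0.391, 0.426 and 0.376 for reads and 0.574, 0.160, 0.570 and 0.163 for T>C, so the paired fit is given beside the main one. It was chosen after seeing the data, as were the fits without header hour 24 and the RNA-seq blocks. No library pair agreed within sampling noise (mean chi-square 3.54 or more). Depth was 14.3 M to 60.3 M mapped reads for SLAM-seq, 79 M to 106 M counts for RNA-seq and 22.9 M to 33.3 M for RIP; intervals cover counting error only. The HEK293T and nanopore samples were not used here. Results for 1 member are not reported here, although it is counted in the totals.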

Additional observations from a re-analysis of the deposited data

How the results depend on the processing

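For SLAM-seq reads the number called (132 names, 2 members higher and 5 lower) was 629, 14 and 13 with DESeq2, 596, 31 and 9 without the filter on low counts, and 1655, 32 and 40 with the header hour as the hour term. With all distinct intervals as features 283 were called, and with no hour term 0 members were higher. The replicate block by labelled hour and number gave 711, 11 and 26, the same block without the 4 libraries of header hour 24 gave 2398, 40 and 80, and leaving out those libraries alone gave 750, 12 and 29. NOP56 turned to -0.41 and -0.37 in the latter pair of fits and TMSB10 to 0.0313 and 0.0285; with 1 library left out NOP56 ran from -0.11 to 0.24, below 0 without siCTRL 0 h or 12 h replicate 2 or siFBL 0 h replicate 2. Leaving out 1 library gave 75 to 137 names, 0 to 2 members higher and 4 to 5 lower. For the T>C share (0 called) the header hour term gave 3791 names and 144 members lower, the replicate block 3109 and 118, the block centred on the library 43 and 1, the block without header hour 24 3143 names with 2 members higher and 103 lower, and that block centred 484, 8 and 9; leaving out 1 library gave 0.

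For RNA-seq at 0 h DESeq2 called 3980 genes, 45 members higher and 104 lower, and ATP5F1B turned to 0.0402 with the 0 h libraries alone; leaving out 1 library gave 633 to 3051 genes, 4 to 32 members higher and 30 to 88 lower, and CKB ran from -0.19, without siFBL 0 h B, to 0.32. With 1 library left out the slope in siCTRL gave 180 to 231 members higher and 98 to 127 lower (6748 to 8425 genes). The slope difference (1 gene) became 18 genes with DESeq2, 0 with other size factors and 0 without the filter, and 0 to 10 genes and 0 to 1 member lower when leaving out 1 library. RIP gave 279 to 305 members higher, 300 to 325 lower and 11800 to 12069 genes, with 59 to 68 SNORD members higher and 7 to 10 SNORA members lower; the replicate block, for RIP libraries that share a number and whose deviations correlated at 0.0792, called 61 SNORD members higher. For RNA-seq, whose columns carry a number that could not be tied to 1 sample each, a replicate block by the column number gave 32 members higher and 74 lower at 0 h, 232 and 124 for the slope in siCTRL, and 0 genes for the slope difference; within each siRNA it gave 247 and 127, and 3 genes with 0 members. Between siRNAs the deviations of equal numbers correlated at -0.149 to 0.0393, so the numbers do not pair the arms. By construction, limits of 200 and 500 nt changed the numbers of members: the 500 nt limit gave 113 lower at 0 h, 226 lower slopes and 523 lower in RIP, and the 200 nt limit 146 higher and 69 lower slopes and 218 lower in RIP. The member counts of the alternative fits and limits in this section come without the numbers tested and the shares over all genes. They show how far the counts move and are not read as results about members.

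The median T>C share left at header hour 24 (6.33% in siCTRL, 2.68% in siFBL) was 5.32% and 6.67% in siCTRL with 300 and 3000 covered T, 8.86% and 5.88% in the arms for reads with T>C per read, 9.04% and 3.54% under 200 nt, and 4.26% and 2.27% under 500 nt. Leaving out 1 library gave 5.29% to 6.36% and 2.59% to 2.83%. Other causes were not tested.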

Other observations

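Members that name tissue-restricted or processed genes were nearly silent in SLAM-seq, and those tested in RNA-seq had positive medians. Of 106 olfactory receptor and keratin-associated protein members, 0 reached the covered-T minimum, yet 78 passed the RNA-seq filter at 0 h with a median log2 of 1.43, siFBL over siCTRL, and 0 were called by edgeR. Of 99 miRNA hairpin members tested there, 67 lay above 0 and 30 below, with a median of 1.27 and 0 called by edgeR. The 1407 protein-coding members tested had a median of 0.35, against 0.04 over all genes. These medians come from low counts, and the part of depth in them was not tested. The filter can keep a scarce gene that is high in the 2 libraries of 1 siRNA and hour alone. Its part in the positive medians was not tested either, so they are not read as a result about members.

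In FBL RIP, 10 of 15 miRNA hairpin members tested were higher than in input and 2 lower, against 39.9% and 43% of all 14967 genes. Only these 15 of the 943 hairpin members could be tested, and the filter on low counts can keep a member through RIP alone. MIR3609 was among the higher, with a log2 value of 6.01. Among 57 histone members, 38 were tested in RNA-seq at 0 h and 2 were called lower, H2AC16 and H2BC17, against 6.87% of all 23437 genes. ACTA2, smooth muscle actin and a fibroblast marker, was the 1 fibroblast marker in the set and was called higher in RNA-seq at 0 h (log2 2.43) while standing at -0.50 in SLAM-seq reads.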
